A study of Mus musculus with 4 samples.

Results

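Activins and Nodal are secreted ligands of the TGF-beta family, and their signalling was read here through 10 mouse genes: the activin subunits Inhba and Inhbb, the ligand Nodal, its co-receptor Tdgf1 (Cripto), the type II receptors Acvr2a and Acvr2b, the receptor-regulated Smads Smad2 and Smad3, and the secreted antagonists Fst and Lefty2. Every probe set that the array annotation assigned to one of these genes alone was taken, which gave 20 probe sets of the 45037 analysed, for 10 of the 18193 genes with a probe set of their own. The cells were gonocytes, the male germ cells of the newborn testis, from mice at 2 days post partum, selected on magnetic beads for THY1 on their surface. They were kept for 8 h without serum, growth factors or feeder cells, in 100 nM retinoic acid (RA) in 2 samples and in ethanol, the vehicle, in the other 2. RNA of each sample was amplified and hybridised to 1 Affymetrix Mouse Genome 430 2.0 array. The labels give no strain and name no separate animals or cultures behind the samples, so each p-value reflects the variation among these samples, part or all of which may be technical.

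Activins are dimers of inhibin beta subunits, and a dimer of a beta subunit with the alpha subunit is an inhibin, which opposes them. Activin and Nodal bind type II receptors, which recruit and phosphorylate the type I receptors Acvr1b or Acvr1c, and these phosphorylate Smad2 and Smad3, which enter the nucleus with Smad4. Nodal needs a co-receptor of the Cripto family, follistatin binds activins and keeps them from their receptors, and Lefty proteins block Nodal. In the mouse, Nodal and Cripto act in male germ cells of the fetal testis, and activins are made by somatic cells of the testis.

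The treatment was checked on Stra8, Cyp26a1 and Rarb, known RA targets, which had log2 changes of 3.35, 3.08 and 2.69 with no overlap of the groups. Even these targets did not pass adjustment over all probe sets in the fit given below (limma, adjusted p = 0.391, 0.212 and 0.209). Stra8, which germ cells need to enter meiosis, had signals of 783 and 1477 on the RA arrays, against 188 and 53.3 on the vehicle arrays. The 3'/5' signal ratio, which tracks how intact and evenly amplified the RNA was, stood higher on both RA arrays for Actb (2.08 and 2.32, against 1.72 and 1.73 with vehicle) and for Gapdh (1.85 and 2.00, against 1.56 and 1.47 with vehicle). The preparation also held other testis cells. On their brightest probe sets, 10 of 10 germ cell markers were above the background level on all 4 arrays, but so were 8 of 10 Sertoli cell markers, all 4 Leydig cell markers measured, 8 of 9 peritubular and stromal, 7 of 7 endothelial and 7 of 7 leukocyte and mast cell markers. The Sertoli cell genes Amh and Fshr were not above that level on all arrays. In a bulk sample, fewer cells of a type and less RNA per cell cannot be told apart, and which cells gave the signal of a gene was not measured.

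The first question was which of the 10 genes gave signal above background. The background level of an array was the 95th percentile of 129 probe sets of olfactory, vomeronasal and taste receptors and keratin-associated proteins, which lay at 6.06 and 14.2 on the RA arrays and at 12.2 and 19.1 on the vehicle arrays. Above it on all 4 arrays were 11 of the 20 member probe sets, and 7 genes had such a probe set: Inhba, Inhbb, Acvr2a, Acvr2b, Smad2, Smad3 and Fst. Another 6 probe sets passed on some arrays and 3 on none. Of all 45037 probe sets, 55.5% were above the level on all 4 arrays. Nodal, Tdgf1 and Lefty2, which belong to the Nodal branch, were the 3 genes with no probe set above it on every array. Which genes passed depended on the percentile. At the 90th percentile 14 member probe sets passed on all arrays, that of Lefty2 among them. At the 99th 8 did, and none was of Acvr2b. Probe sets differ in how well they bind their transcript, so one at background does not show that the transcript was absent, and signals of different genes cannot be ranked against each other.

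**Figure D1:**
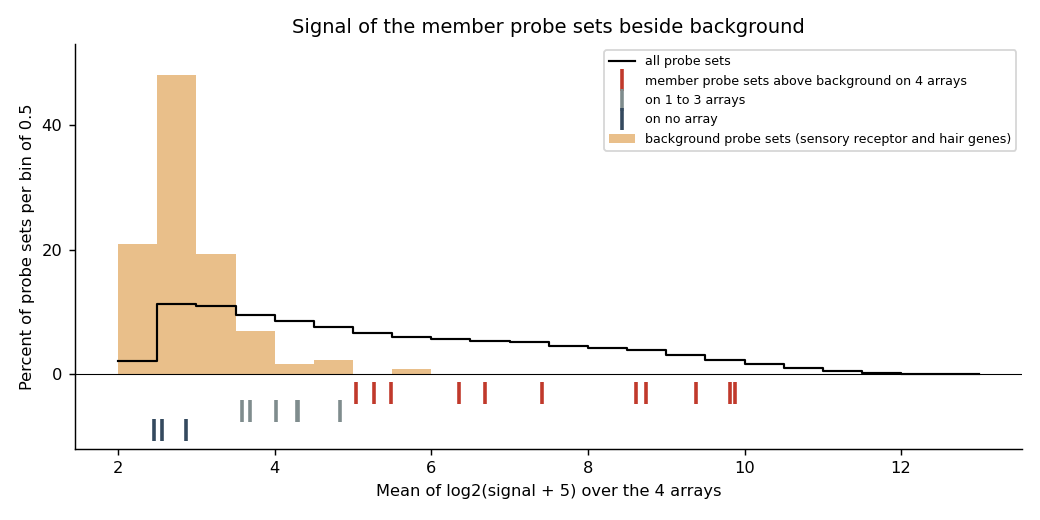
Mean of log2(signal + 5) over the 4 arrays on the x axis and the percent of probe sets per bin on the y axis, for 129 background probe sets (bars) and all 45037 probe sets (line), with ticks under the axis for the 20 member probe sets. The 11 ticks in the upper row were above the background level on all 4 arrays, the 6 in the middle row on 1 to 3 arrays and the 3 in the lower row on none.

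RA was compared with vehicle in limma on log2(signal + 5) over the 27022 probe sets whose mean reached the 40th percentile, and 12 member probe sets, of 8 genes, were among them. Replicate numbers were not used in it. None of the 12 passed Benjamini-Hochberg adjustment, each with an adjusted p of 1, where 0 of all 27022 (0%) passed. At an unadjusted p under 0.05 there was 1 of the 12, for Smad3, where the 743 over all probe sets are 2.75%. The RA arrays were both higher than the vehicle arrays in 2 of the 12 (12.7% of all probe sets) and both lower in 1 (15.2% of all probe sets). The 3 that did not overlap in either direction compare with 27.9% over all probe sets, so the members' share was near the background. The log2 changes of the 12 ran from -0.53 to 0.52, with a median of -0.09 beside -0.02 over all probe sets above the filter, and all 12 were smaller than 1.5-fold, as were 94.7% of all. With single arrays left out, the count of 0 over all probe sets became 90 without RA replicate 1, 152 without RA replicate 2 and 1 without vehicle replicate 1. Such fits assume that the lone array left in a group varies like the 2 of the other group. Without 1 array, the members that did not overlap numbered 8 (RA replicate 1), 8 (RA replicate 2), 8 (vehicle replicate 1) and 6 (vehicle replicate 2), since a group of 1 array is easier to separate. An exact two-sided permutation test of 2 arrays against 2 cannot give a p below 0.333.

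**Figure D2:**
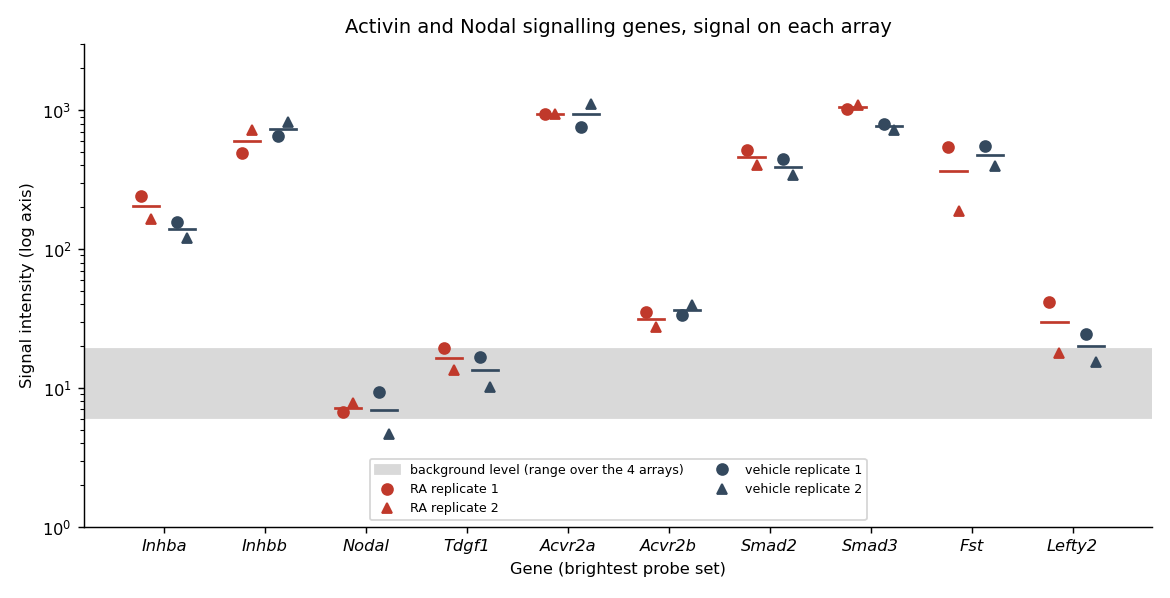
Signal intensity on each array (log axis) of the brightest probe set of each of the 10 genes, RA at the left and vehicle at the right of each pair, with a line at the mean of 2 arrays and the background level as a grey band. Inhba and Smad3 have both RA arrays above both vehicle arrays, while Nodal and Tdgf1 lie within or near the band.

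Among the ligands, Inhba, which encodes the subunit of activin A, had signals of 243 and 164 on the RA arrays, against 158 and 120 on the vehicle arrays. The groups did not overlap, with RA the higher, although RA replicate 2 and vehicle replicate 1 nearly met. The difference was 1.44-fold (log2 change 0.52 ± 0.27, SE, n = 2 per group) with a 95% interval from -0.09 to 1.14, and it did not pass (limma, unadjusted p = 0.0865, adjusted p = 1). Without RA replicate 1 the log2 change was 0.25, and without RA replicate 2 it was 0.80. The second Inhba probe set stayed under the background level on all 4 arrays and was not tested.

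Inhbb, the subunit of activin B, had signals of 495 and 715 with RA, against 650 and 827 with vehicle. The groups overlapped, and the higher value of each came from replicate 2. The log2 change was -0.30 ± 0.25 (SE), with a 95% interval from -0.87 to 0.27 (limma, adjusted p = 1), and without single arrays it lay between -0.56 and -0.04. The other probe set, which was below the filter, had 9.16 and 11.1 with RA and 10.3 and 14.5 with vehicle. Inha, the alpha subunit that turns these into inhibins, overlapped as well, with 325 and 446 with RA and 322 and 482 with vehicle. Inhbb and Inha thus stood higher on replicate 2 of both groups. Markers of Sertoli cells, which make inhibin, were divided on their brightest probe sets. Clu, Aard, Cst9, Dhh and Gata1 stood higher on replicate 2 of both groups, but Sox9, Wt1 and Rhox5 stood higher on replicate 1 of both. Clu, the brightest, had 1672 and 2666 with RA, and Sox9 had 620 and 534. The summed signal of the 10 Sertoli cell markers was 4263 and 5618 with RA and 4011 and 5240 with vehicle. Of these markers 5 were higher and 5 lower with RA, with a median log2 change of 0.00, and their part in the values of the activin subunits was not tested. The sums of the 4 Leydig cell markers were 1509 and 1978 with RA and 1374 and 2495 with vehicle, and those of the 9 peritubular and stromal markers 8677 and 11361 with RA and 8085 and 10428 with vehicle.

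Nodal lay at background on both of its probe sets. The brighter had signals of 6.67 and 7.74 with RA and of 9.30 and 4.65 with vehicle, and passed the background level on 1 array only. The other had 0.279 and 4.08 with RA and 4.20 and 1.43 with vehicle. No direction can be read from values of this size, and neither probe set reached the filter. Tdgf1, whose product is the co-receptor through which Nodal signals, had 19.2 and 13.4 with RA, against 16.8 and 10.2 with vehicle. Its groups overlapped, replicate 1 was the higher in each, and its only probe set passed the background level on 2 arrays and was not tested.

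Of the type II receptors, Acvr2a had signals of 944 and 943 on the RA arrays, against 760 and 1117 on the vehicle arrays. The 2 RA arrays were almost equal and lay between the vehicle arrays, with a log2 change of 0.03 ± 0.24 (SE) and a 95% interval from -0.52 to 0.59 (limma, adjusted p = 1). Its second probe set, with 121 and 70.8 with RA and 110 and 98.5 with vehicle, gave -0.16 ± 0.30. Acvr2b, the related receptor, has 3 probe sets. The brightest had 35.3 and 27.4 with RA, against 33.5 and 39.4 with vehicle, and the groups overlapped (log2 change -0.19 ± 0.30). On the second, with 23.5 and 23.4 with RA and 36.4 and 29.3 with vehicle, the groups did not overlap, with RA the lower, and the log2 change was -0.41 ± 0.29 (limma, unadjusted p = 0.205, adjusted p = 1). The third Acvr2b probe set was under the background level on all arrays.

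**Figure D3:**
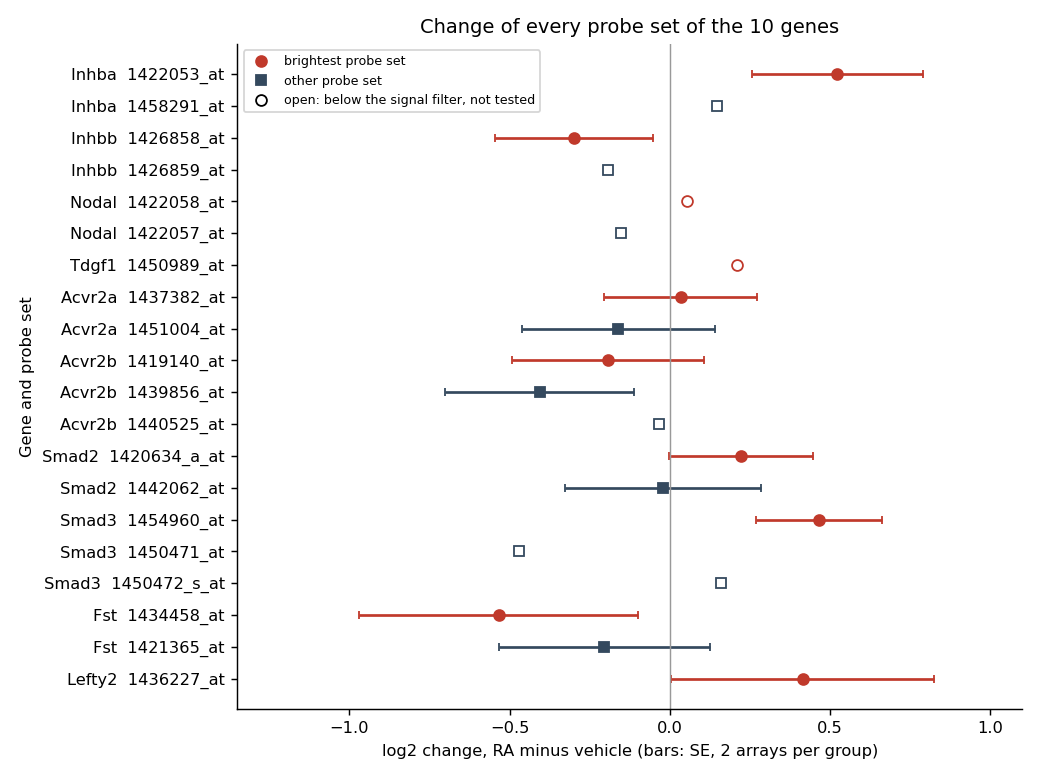
The log2 change, RA minus vehicle, of all 20 probe sets of the 10 genes on the x axis, with bars of 1 SE from limma for the 12 that were tested and open symbols for the 8 below the signal filter. The tested changes run from -0.53 (Fst) to 0.52 (Inhba), and probe sets of 1 gene do not always share a direction.

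Smad3, a transcription factor that carries the activin and Nodal signal, had signals of 1025 and 1088 on the RA arrays, against 802 and 726 on the vehicle arrays. The groups did not overlap, with RA the higher, and the spread within each group was smaller than the gap between the groups. The difference was 1.38-fold (log2 change 0.47 ± 0.20, SE, n = 2 per group), with a 95% interval from 0.01 to 0.92. It had the smallest p of the members and did not pass (limma, unadjusted p = 0.046, adjusted p = 1). Leaving out single arrays gave 0.40 to 0.54. The other 2 Smad3 probe sets were below the filter and pointed opposite ways, with log2 changes of -0.47, from signals of 8.76 and 3.69 with RA and 12.3 and 8.21 with vehicle, and of 0.16, from 10.04 and 23.2 with RA and 11.0 and 16.2 with vehicle. The mean of all 3 Smad3 probe sets gave 0.05.

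Smad2, its close relative, had signals of 517 and 401 with RA, against 442 and 343 with vehicle. Replicate 1 was the higher in both groups, and the groups overlapped. The log2 change was 0.22 ± 0.23 (SE), with a 95% interval from -0.30 to 0.74, and its second probe set, with 93.9 and 62.1 with RA and 90.7 and 66.5 with vehicle, gave -0.02 ± 0.31. The intervals of Smad2 and Smad3 overlap, and whether the changes of these 2 genes differed was not tested.

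Of the antagonists, Fst, which encodes follistatin, had signals of 540 and 189 on the RA arrays, against 549 and 396 on the vehicle arrays. RA replicate 1 matched vehicle replicate 1, while RA replicate 2 was the lowest of the 4. The log2 change was -0.53 ± 0.44 (SE), the widest error among the tested members, with a 95% interval from -1.54 to 0.47 (limma, adjusted p = 1). This value rested on 1 array: without RA replicate 1 the log2 change was -1.28, and without RA replicate 2 it was 0.21. Each of these sets a single RA array against 2 vehicle arrays, with an SE of 0.25 in limma. Without RA replicate 1 the SE was almost the same, 0.24, for a Smad7 probe set with vehicle arrays nearly equal at 429 and 425. The gene's own spread thus weighed little in such fits. The second Fst probe set had 43.6 and 31.0 with RA and 53.0 and 35.1 with vehicle, which overlapped (log2 change -0.20 ± 0.33). Lefty2, the Nodal antagonist, had 41.9 and 18.0 with RA, against 24.7 and 15.4 with vehicle, and was above the background level on 3 arrays. RA replicate 1 stood apart from the other arrays, and the log2 change of 0.41 ± 0.41 became 0.93 without RA replicate 2 and -0.10 without RA replicate 1.

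Other genes of the pathway were read from a list of 42, of which 38 had a probe set of their own and 27 were above the filter on the brightest one. None of the 27 passed (limma), and at an unadjusted p under 0.05 there was 1, where 353 of 13011 genes (2.71%) were. The RA arrays were both higher in 8 of the 27 (14.1% of all genes) and both lower in 5 (12.6% of all genes). The median log2 change was 0.03, beside 0.01 over all genes above the filter. By role, the RA arrays were all higher in 3 of 4 antagonists and all lower in 1, and among 11 intracellular components they were all higher in 3 and all lower in 3. None of the 3 receptors or co-receptors separated the groups.

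**Figure D4:**
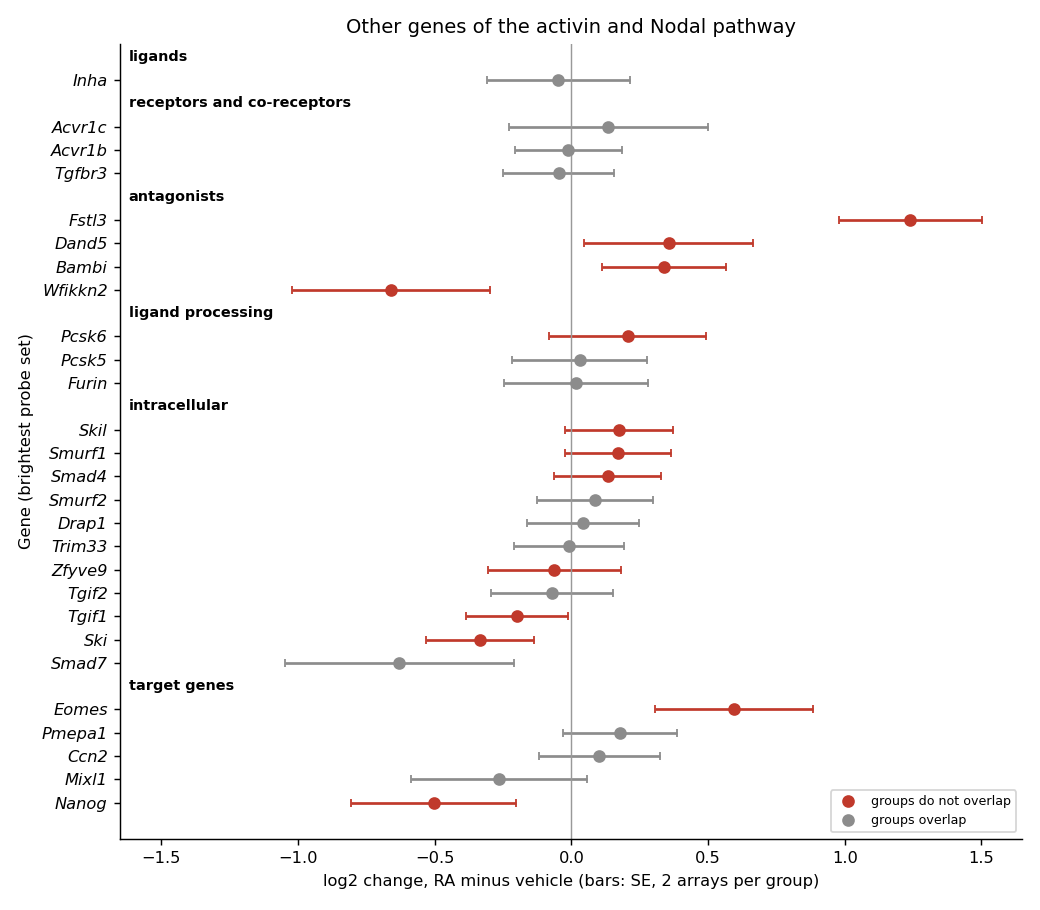
The log2 change, RA minus vehicle, of the 27 other pathway genes above the filter on their brightest probe set, by role, with bars of 1 SE from limma and red symbols where the 2 RA and 2 vehicle arrays do not overlap. Fstl3 stands at 1.24, and the other 26 lie between -0.66 and 0.60.

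The largest of these changes was that of Fstl3, a relative of follistatin that binds activins and myostatin. Its signals were 120 and 157 on the RA arrays, against 58.7 and 52.1 on the vehicle arrays. The arrays of each group stood close together with a gap of about 2-fold between them. The difference was 2.36-fold (log2 change 1.24 ± 0.26, SE, n = 2 per group), with a 95% interval from 0.63 to 1.85, and in the fit without the replicate number it did not pass over all probe sets (limma, unadjusted p = 0.00158, adjusted p = 0.931). Leaving out single arrays gave 1.05 to 1.43. The 3'/5' ratios of both control transcripts were also higher on both RA arrays, and their part in this result was not tested.

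The other named antagonists lay closer to 0. Bambi, a receptor without a kinase domain that dampens TGF-beta family signals, had 169 and 140 with RA and 115 and 126 with vehicle, a log2 change of 0.34 ± 0.23. Dand5, an inhibitor of Nodal, had 23.7 and 26.2 with RA and 15.2 and 22.0 with vehicle, a change of 0.36 ± 0.31. Wfikkn2, a secreted inhibitor of myostatin and related ligands, ran the other way, with 45.2 and 23.9 with RA and 65.3 and 46.4 with vehicle (-0.66 ± 0.36). Its change was -1.06 when RA replicate 1 was left out and -0.26 when RA replicate 2 was. In all 3 of these antagonists the groups did not overlap, and none passed (limma, adjusted p = 1 each).

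Of the inhibitors inside the cell, Ski, a corepressor that binds Smads, was lower on both RA arrays on both of its probe sets. The brighter had 698 and 794 with RA and 917 and 962 with vehicle (log2 change -0.33 ± 0.20), and the other had 193 and 199 with RA and 241 and 258 with vehicle (-0.34 ± 0.20). Smad7, the inhibitory Smad that activin and TGF-beta themselves induce, disagreed between its probe sets. One had 269 and 308 with RA, against 386 and 427 with vehicle, with no overlap and a log2 change of -0.49 ± 0.20 (limma, unadjusted p = 0.0384, adjusted p = 1). The brightest, of a type whose probes can match other transcripts too, had 461 and 162 with RA, against 429 and 425 with vehicle. Only RA replicate 2 was low there. The log2 change of -0.63 ± 0.42 became 0.11 without that array and -1.37 without RA replicate 1, each from a single RA array.

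**Figure D5:**
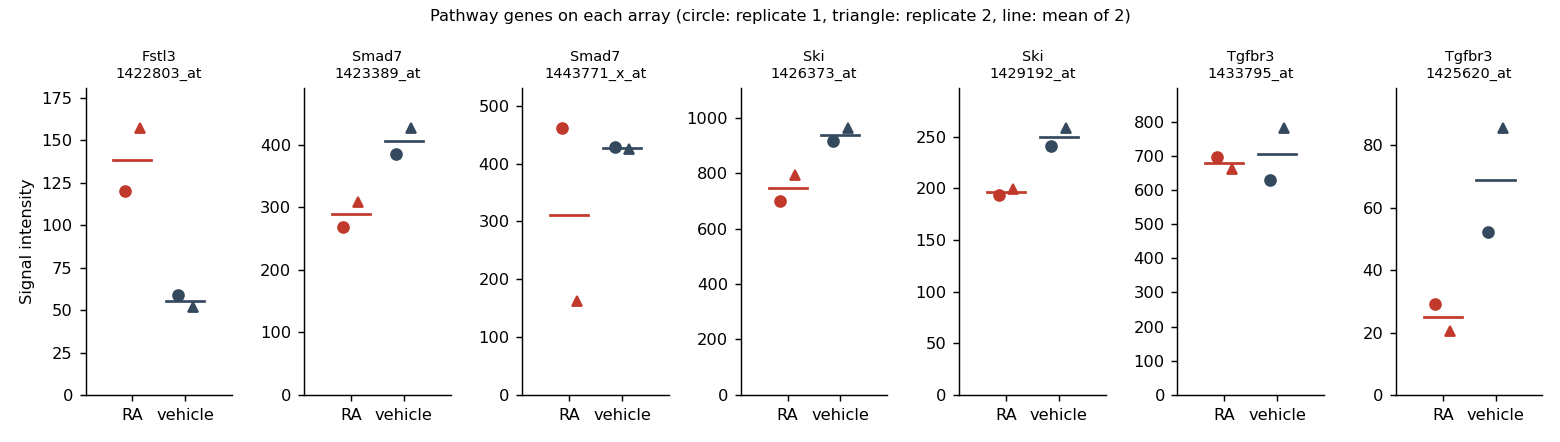
Signal intensity on each array for the probe sets of Fstl3, Smad7, Ski and Tgfbr3, RA at the left and vehicle at the right of each panel, circles for replicate 1, triangles for replicate 2 and lines at the mean of 2 arrays, with each axis starting at 0. Fstl3 shows the RA arrays at 120 and 157 above the vehicle arrays at 58.7 and 52.1, and the second Tgfbr3 probe set shows the opposite order, which the first does not.

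Among the receptors, the type I receptor Acvr1b had 254 and 230 with RA and 238 and 248 with vehicle, and its log2 change was -0.01 ± 0.20. Tgfbr3 (betaglycan), which helps inhibin to block activin receptors, was at 29.2 and 20.6 with RA and 52.4 and 85.5 with vehicle on the dimmer of its probe sets, a log2 change of -1.28 ± 0.34 (limma, unadjusted p = 0.00578, adjusted p = 1). The brighter had 696 and 661 with RA and 629 and 781 with vehicle, with a change of -0.05 ± 0.20, so the 2 probe sets of this gene differed. Of genes that activin or Nodal signalling is known to act on in embryonic cells, Eomes, a T-box factor, had 61.0 and 68.9 with RA and 47.7 and 35.6 with vehicle (0.60 ± 0.29, and 0.09 on its other probe set). Nanog, a pluripotency factor, had 19.4 and 16.6 with RA and 31.3 and 24.2 with vehicle (-0.50 ± 0.30). Neither passed (limma, adjusted p = 1 each).

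The bases before the annotated start are printed for the 2 members whose brightest probe set had both RA arrays above both vehicle arrays, Inhba and Smad3, and for Fstl3, which had the largest change of the other pathway genes on brightest probe sets. They are the 250 bases upstream in RefSeq's GRCm38.p6 annotation, written 5′ to 3′ on the gene's strand, at chr13:16011601-16011850 (plus strand) for Inhba, chr9:63757995-63758244 (minus strand) for Smad3 and chr10:79777024-79777273 (plus strand) for Fstl3. Capitals mark AGGTCA, the element that retinoid receptor pairs bind in repeats, or its reverse complement; this single element was added to the motif search after the values were seen.
Inhba: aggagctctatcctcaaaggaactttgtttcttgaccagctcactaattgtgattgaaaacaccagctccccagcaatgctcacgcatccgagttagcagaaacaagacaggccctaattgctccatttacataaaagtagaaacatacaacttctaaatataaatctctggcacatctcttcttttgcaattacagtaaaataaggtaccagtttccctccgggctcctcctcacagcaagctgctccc
Smad3: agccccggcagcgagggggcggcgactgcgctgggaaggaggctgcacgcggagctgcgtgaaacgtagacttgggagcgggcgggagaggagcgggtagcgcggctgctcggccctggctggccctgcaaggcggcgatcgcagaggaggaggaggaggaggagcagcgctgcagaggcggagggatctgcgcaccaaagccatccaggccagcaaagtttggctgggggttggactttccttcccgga
Fstl3: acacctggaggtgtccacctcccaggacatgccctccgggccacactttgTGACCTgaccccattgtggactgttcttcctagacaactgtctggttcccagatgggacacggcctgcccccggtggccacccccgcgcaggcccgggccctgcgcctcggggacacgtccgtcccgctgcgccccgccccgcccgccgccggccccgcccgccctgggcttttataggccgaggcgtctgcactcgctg

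The Fstl3 window held 1 such element, on the opposite strand, 200 bases before the start, and the Inhba and Smad3 windows held none. The element also lay in the window of Gdf1, which had no probe set of its own. It lay as well in windows of Dand5, Inha, Zfyve9, Tgif1 and Nanog, whose log2 changes on brightest probe sets were 0.36, -0.05, -0.06, -0.20 and -0.50. Of 32851 such windows of all genes, 14.0% held the element on either strand. Direct repeats of AGGTCA with 5 or 2 bases between the copies, which contain the element, occurred in 3 windows each. None was in the printed windows of Inhba, Smad3 and Fstl3. The Smad palindrome GTCTAGAC (0.167% of windows) and the Foxh1 motif AATNCACA (3.18%), searched on both strands, were not in the printed windows either. The Foxh1 motif did lie in the windows of Nanog and of Inhbc, a gene on the ligand list. The other members with a window in the table, 7 of 10 in all, held no match of the 5 motifs. Windows of listed genes on 1 chromosome were left out of the search for matches. The search describes the letters of the windows alone.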

How the data were processed

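The values deposited by the authors are linear intensities, 1 for each probe set on each of 4 Affymetrix Mouse Genome 430 2.0 arrays; per the labels, images were quantified with GCOS v1.2. Per the labels' protocols, RNA was amplified with the NuGEN Ovation system, which can lower signal far from the 3' end. The sources used here do not give the probe summary or the array scaling. The trimmed means (2% at each end) were 125 on each array, and no further normalization was applied. The number of arrays limits the precision.

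The 64 control probe sets were left out. Gene names came from the array annotation and were brought up to date by Entrez ID (34741 matched); those naming several genes (932) or none (9160) named none here. RA was compared with vehicle in limma 3.58.1 (R 4.3.3; lmFit, eBayes with an intensity trend, two-sided) on log2(intensity + 5), where 5 is the rounded 20th percentile of all values, for probe sets at or above the 40th percentile of mean log2 signal. Adjustment ran over all 27022 kept. Folds carry that pseudocount and so are too small for dim genes. A gene was represented by its brightest probe set by mean log2 value. The fit without the replicate number was tested on simulated arrays with independent noise and changes larger than those of the members. Unlike those, same-numbered arrays here deviated together.

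All members are named. Of the other pathway genes, the 8 smallest p-values are named and any probe set with a log2 change of at least 1 and separate groups; Inha and Acvr1b were added after their values were seen. The members and lists were chosen with earlier results of these data known. Listed genes with no probe set of their own were not analysed here. Alternatives covered normalization, pseudocount, filter, variance model, the replicate block, single arrays and the background level.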

Additional observations from a re-analysis of the deposited data

How the results depend on the processing

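Over 12 or 13 alternatives per gene, the log2 changes of the 10 members were recomputed 126 times, and 118 kept their direction. Changing the filter, the variance model or the replicate block does not move a gene's log2 change, so those runs could not reverse it. Nor could the mean of all probe sets for Tdgf1 and Lefty2, which have 1 probe set each. The 118 therefore include runs whose direction was fixed. Inhba, Inhbb, Acvr2b, Smad2 and Smad3 kept their direction throughout. Of the 8 reversals, the mean of all probe sets gave -0.0485 for Nodal and -0.0635 for Acvr2a, and the other 6 came from leaving out 1 array: the changes then ran from -0.23 to 0.34 for Nodal, from -0.0494 to 0.471 for Tdgf1, from -0.24 to 0.31 for Acvr2a, from -1.28 to 0.21 for Fst, from -0.10 to 0.93 for Lefty2 and, outside the members, from -1.37 to 0.11 for the brightest Smad7 probe set. Fst without RA replicate 1 was the only member past the threshold under any alternative. That fit held a single RA array, and the gene's own spread weighed little in its SE, so no change is read from it. The count of all probe sets called lay between 0 and 152 without single arrays, that of other pathway genes between 0 and 1, and that of member probe sets with separate groups between 6 and 8 (3 with all arrays).

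The replicate number as a block gave 543 calls over all probe sets (221 higher, 322 lower), where the fit without it gave 0, and 2 of the other pathway genes. These were Fstl3 (limma, adjusted p = 1.6e-05) and the brightest Smad7 probe set (0.0387), and the dimmer Tgfbr3 probe set also passed (0.000164). On that Smad7 probe set the same-numbered arrays ran opposite ways. Replicate 1 had 461 with RA and 429 with vehicle, and replicate 2 had 162 with RA and 425 with vehicle. On the other Smad7 probe set both RA arrays were the lower, and it did not pass (limma, adjusted p = 0.198). Yet the SE with the block was 0.186 on both. A probe set's own spread thus weighed little, and the 543 calls rest mostly on the spread over all probe sets. No member passed with the block, where the smallest adjusted p was 0.119, for Fst. Arrays of the same number deviated together, with a correlation of 0.526 over 27022 probe sets, but the labels do not say what the number stands for. With 11 member probe sets above background in the main setting, no alternative moved that count by over 1.5 times. It ran from 8 at the 99th percentile, where Acvr2b dropped out, to 14 at the 90th, where Lefty2 passed. Signal near background limits what can be said of Nodal, Tdgf1 and Lefty2.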

Other observations

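Other pathway genes, chosen after their values were seen, had probe sets that differed from each other. Pmepa1, a feedback inhibitor that TGF-beta signals induce, had log2 changes of 0.18, 0.25 and 0.68 on its 3 probe sets, and on the last the signals were 26.6 and 29.0 with RA and 14.4 and 16.6 with vehicle, near the background level. Pcsk5, a protease that cuts ligand precursors, ran from -0.63 to 0.62 over its 4 probe sets above the filter. Skil, a relative of Ski, was higher on both RA arrays on both of its probe sets (log2 changes of 0.17 and 0.42), opposite in sign to Ski. None of these passed in limma, with adjusted p of 1 each.

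Over the markers of other cells, all 7 endothelial markers had a positive log2 change, as had 6877 of 13011 genes above the filter. Their summed signals were 306 and 356 with RA and 267 and 242 with vehicle. The groups did not overlap in 3 of the 7, beside 26.8% of all genes, and Kdr stood at 0.02 ± 0.30 (SE). The 7 leukocyte and mast cell markers summed to 897 and 2316 with RA and to 1442 and 3024 with vehicle, and 5 of them were lower with RA. Mcpt1, a mast cell protease, was lower by the most, with 64.5 and 75.6 with RA and 305 and 411 with vehicle (log2 change -2.26 ± 0.24, SE). It was the only 1 of the 7 whose groups did not overlap, beside 26.8% of all genes. Cpa3, another mast cell gene, overlapped, with 267 and 949 with RA and 393 and 1073 with vehicle. Ptprc (0.07) and Cd68 (0.06) were slightly higher. The 10 germ cell markers summed to 8131 and 8595 with RA and to 8866 and 8819.6 with vehicle. Of these 8 were lower with RA, and the median log2 change was -0.16. Sall4 (0.30) and Pou5f1 (0.16) were higher, and Ddx4 (-0.10) and Gfra1 (-0.05) moved little. Ret and Zbtb16 were lower by the most. On its brightest probe set Ret, which encodes the receptor kinase for GDNF, had 254 and 277 with RA and 514 and 562 with vehicle. Zbtb16, a transcription factor of undifferentiated spermatogonia, had 368 and 174 with RA and 701 and 699 with vehicle (log2 change -1.45 ± 0.33, SE). That was its brightest probe set, of a type whose probes can match other transcripts too. Its other probe sets gave -0.63 and, with groups that overlapped, -0.21. On brightest probe sets the groups did not overlap in 3 of the 10 germ cell markers, Ret and Zbtb16 among them, beside 26.8% of all genes. None of the germ cell, endothelial, leukocyte and mast cell markers passed (limma, smallest adjusted p = 0.147, for Mcpt1). Their part in the values of the pathway genes was not tested.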
